A study of Mus musculus with 35 samples.

Results

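The 10 genes described here code for interleukin-6 (IL-6) family cytokines, the receptor chains that bind them, the transcription factor STAT3 and its inhibitor SOCS3. They were picked by name (Il6, Lif, Osm, Clcf1, Osmr, Lifr, Il6ra, Il6st, Stat3 and Socs3), and all 10 were found among the 21203 genes of the table. Expression was measured by RNA-seq in tissue around the injection site of 34 mice, each sequenced as its own library. The labels name left cortex as the tissue, and the study's methods the injection region of the hemisphere. The mice were male C57BL/6N (labelled C57BL/6NCrl), 8 to 9 weeks old at the start, and no group carried an engineered allele. Sham mice went through every step except the impact and received no injection. All other mice had a closed head injury and, on day 5 after it, an injection into the left hippocampus of PBS, of MSCs or of IL-4 MSCs. Injury and injection thus cannot be told apart in any comparison against Sham. MSCs are mesenchymal stromal cells of C57BL/6N mice, and IL-4 MSCs are the same cells transfected with synthetic IL-4 mRNA. Injected and host RNA are therefore both mouse and were counted together. No sequenced group received MSCs transfected with another mRNA, so effects of IL-4 and of transfection cannot be told apart in IL-4 MSCs. Tissue was taken 2 days after injection in the 1 week post injury (wpi) groups and 16 days after it in the 3 wpi groups. There were 5 mice in a group, and 4 in the PBS group at 3 wpi, since another mouse was labelled as excluded and is not analysed here. The 5 Sham mice, 2 of week 1 and 3 of week 3, formed 1 group.

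IL-6, leukemia inhibitory factor (LIF), oncostatin M (OSM) and cardiotrophin-like cytokine factor 1 (CLCF1) all signal through gp130, the protein of Il6st, a receptor chain found on most cell types. Each cytokine also needs a partner chain (the IL-6 receptor, the LIF receptor or the OSM receptor), and LIF and CLCF1 share the LIF receptor. The assembled receptors activate JAK kinases, which phosphorylate STAT3. STAT3 then enters the nucleus and switches on genes that include Socs3, whose protein binds gp130 and JAKs and shuts the signal down. In injured brain this pathway is best known for its part in the reaction of astrocytes and microglia and in the acute phase response. mRNA levels do not show phosphorylation of STAT3, which was not measured here.

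The 34 libraries held between 29838423 and 41554322 estimated counts. At that depth 3 counts, taken as the lowest detectable level in a library, correspond to between 0.0722 and 0.101 counts per 1000000 counts of the library (CPM). These limits cover counting error only. The genes below were compared between groups with edgeR's quasi-likelihood test over 17131 genes with enough counts to be kept, and a gene was called where its Benjamini-Hochberg adjusted p was under 0.05. Of the 10 genes 9 passed the filter, and Il6 did not. Comparisons against Sham share the same Sham libraries, and those between treatments share the libraries of the same treated mice, so their results are given side by side only. In whole tissue, fewer cells of a type and less RNA per cell cannot be told apart. Summed CPM of 8 neuron markers lay between 6714 and 7173 in Sham and were lower in every injured library at 1 wpi, at 6036 to 6542 in PBS, 6109 to 6366 in MSCs and 5948 to 6358 in IL-4 MSCs. Their part in the rises described here was not tested. In Sham 13 markers of striatum summed to between 386 and 1204 CPM and 8 of choroid plexus to between 111 and 972 CPM. The tissue was thus not cortex alone.

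In uninjured brain the shared parts of the pathway were abundant and its cytokines scarce. Per transcript length, in TPM (transcripts per 1000000 transcripts), Il6st had the highest Sham level of the 10 genes, 39.6 ± 4.05 (SD, n = 5), followed by Stat3 with 25.4 ± 2.85 and Lifr with 21.1 ± 0.795. The more selective receptor chains were lower, at 4.01 ± 0.863 TPM for Il6ra and 2.21 ± 0.412 TPM for Osmr, with Socs3 between them at 2.65 ± 0.451 TPM. Among the cytokines Clcf1 stood at 1.74 ± 0.547 TPM, Lif at 0.411 ± 0.152 TPM, Osm at 0.112 ± 0.0559 TPM and Il6 at 0.0719 ± 0.0682 TPM. Il6 was at or under 3 counts in 23 of the 34 libraries and had no count in 5, and Osm was at or under 3 counts in 5. The other 8 genes were above 3 counts in every library.

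Promoter windows are shown for the 3 genes with a match to a short motif of the factors that act in this pathway or beside it, so that the letters can be read beside the expression values. RefSeq (GRCm38.p6) windows of 250 bases before the start were at hand for 8 of the 10 genes. They were searched on both strands for the STAT motif TTCNNNGAA, held by 7.02% of all 32851 such windows, the AP-1 motif TGANTCA, held by 6.75%, and the NF-kB motif (GGGA, any base, then TTTCC), held by 0.356%. Socs3 had the STAT motif (chr11:117969452-117969616, minus strand, the 165 bases farthest from the start, since exons of another Socs3 transcript cover the rest). Il6 had an AP-1 and an NF-kB match (chr5:30012864-30013113, plus strand), and Lif an AP-1 match (chr11:4257318-4257556, plus strand, 239 bases). Capitals mark the matches, which do not overlap each other, and each sequence reads 5′ to 3′.
Socs3: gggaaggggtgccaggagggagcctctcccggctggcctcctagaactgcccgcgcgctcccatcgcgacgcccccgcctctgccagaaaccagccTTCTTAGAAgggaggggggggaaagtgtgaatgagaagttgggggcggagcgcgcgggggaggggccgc
Il6: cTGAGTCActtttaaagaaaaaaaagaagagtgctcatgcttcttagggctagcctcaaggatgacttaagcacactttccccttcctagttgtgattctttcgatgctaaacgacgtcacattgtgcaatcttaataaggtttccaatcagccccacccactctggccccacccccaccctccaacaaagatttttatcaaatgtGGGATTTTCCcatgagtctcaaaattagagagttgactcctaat
Lif: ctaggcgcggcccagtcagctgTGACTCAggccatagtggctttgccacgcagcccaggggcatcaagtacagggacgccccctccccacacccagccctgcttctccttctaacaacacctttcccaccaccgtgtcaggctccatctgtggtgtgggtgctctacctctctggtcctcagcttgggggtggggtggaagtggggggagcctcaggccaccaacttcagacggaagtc
The windows of Il6ra, Stat3, Il6st, Osmr and Lifr held none of these letters, which says nothing about binding of the factors.

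Of the cytokines, Osm had the largest fitted fold change against Sham at 1 wpi among the tested genes of the pathway. OSM is made mainly by neutrophils, macrophages and other blood-derived leukocytes. The Sham libraries held 0.162, 0.123, 0.0279, 0.168 and 0.0915 CPM of Osm. PBS at 1 wpi held 0.253, 0.344, 1.09, 0.474 and 0.383 CPM, and MSCs 0.167, 0.433, 1.01, 0.193 and 0.313 CPM. IL-4 MSCs held 1.24, 1.05, 1.51, 1.68 and 0.86 CPM. Every PBS and IL-4 MSC library exceeded every Sham library, whereas the lowest MSC library lay just within the Sham range, and replicate 3 of PBS and of MSCs reached the IL-4 MSC range. The log2 fold change against Sham in PBS was 2.06 ± 0.498 (SE, adjusted p = 0.00413), in MSCs 1.81 ± 0.507 (adjusted p = 0.0105) and after IL-4 MSCs 3.35 ± 0.459 (adjusted p = 4.79e-07). IL-4 MSCs were 2.44-fold higher than PBS (adjusted p = 0.0145) and 2.89-fold higher than MSCs (adjusted p = 0.00611). In MSCs the call against Sham depended on replicate 3, without which the log2 fold change was 1.19 with an adjusted p of 0.12. Against only the Sham mice of week 1, Osm no longer passed in PBS (log2 fold change 2.2, adjusted p = 0.0502) or in MSCs (1.97, adjusted p = 0.0672), although neither fold change was smaller.

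In PBS and in MSCs at 1 wpi, replicate 3 was highest both in Osm and in neutrophil markers. The sum of 8 neutrophil markers was 11.4 CPM in replicate 3 of PBS, where the other 4 libraries had 2.03 to 3.78 CPM. It was 14.8 CPM in replicate 3 of MSCs, where the others had 3.28 to 5.44 CPM, and IL-4 MSC libraries ranged from 4.9 to 11.1 CPM against 0.277 to 3.02 CPM in Sham. Of the 8 markers 6 passed the filter on low counts. Against Sham, PBS had 1 of them called higher, MSCs 1 and IL-4 MSCs 2, where 8.7%, 10.9% and 18.4% of all genes were. Replicate 3 of MSCs at 1 wpi had more of these markers than any IL-4 MSC library, with Osm (1.01 CPM) inside the IL-4 MSC range. Replicate 5 of MSCs at 3 wpi held 10.8 CPM of these markers and 0.345 CPM of Osm. The part of neutrophil RNA in the Osm values was not tested.

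Lif, a cytokine made by astrocytes, stromal cells and many others after damage, rose in IL-4 MSCs. Lif lies on chromosome 11 from 4257557 to 4272514, next to Osm at 4236420 to 4241026, both on the plus strand (GRCm38). Its Sham values were 0.567, 0.5, 0.879, 1.14 and 0.588 CPM. At 1 wpi PBS held 0.879, 1.81, 1.23, 1 and 1.11 CPM, MSCs held 1.88, 1.02, 1.06, 0.979 and 0.689 CPM and IL-4 MSCs held 2.88, 2.21, 2.75, 1.95 and 1.35 CPM. All 5 IL-4 MSC libraries were above all Sham libraries, and they overlapped those of PBS and MSCs only through the lowest of them and 1 high library in each. IL-4 MSCs were 2.85-fold higher than Sham (adjusted p = 4.77e-06), 1.77-fold higher than PBS (adjusted p = 0.00984) and 1.93-fold higher than MSCs (adjusted p = 0.00453). PBS did not pass against Sham at a log2 fold change of 0.69 ± 0.244 (adjusted p = 0.0584). It passed without Sham replicate 4 (adjusted p = 0.0151) and without PBS replicate 1 (adjusted p = 0.0375). MSCs, with a log2 fold change of 0.56 ± 0.246 (adjusted p = 0.121), passed without Sham replicate 4 (adjusted p = 0.0344).

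Clcf1, which binds the ciliary neurotrophic factor receptor together with LIFR and gp130, was higher than in Sham in every treatment group at 1 wpi. Sham libraries held 0.975, 0.922, 0.461, 0.883 and 0.885 CPM, and PBS libraries at 1 wpi 1.7, 3.11, 2.11, 1.77 and 2.09 CPM. MSCs held 1.96, 2.32, 1.98, 2.06 and 1.72 CPM, and IL-4 MSCs 3.12, 2.83, 2.65, 3.03 and 2.86 CPM. No injured library at 1 wpi overlapped Sham, and the IL-4 MSC libraries were the most alike of the 3 injured groups at that time relative to their mean of 2.9 ± 0.181 CPM. The fold against Sham for PBS was 2.55 (adjusted p = 1.88e-06), for MSCs 2.35 (adjusted p = 5.62e-06) and for IL-4 MSCs 3.32 (adjusted p = 1.35e-09). The step from PBS to IL-4 MSCs, 0.38 ± 0.162 in log2, did not pass (adjusted p = 0.107). It did pass without PBS replicate 2, the highest PBS library (adjusted p = 0.0129). The step from MSCs to IL-4 MSCs, 0.5 ± 0.163 in log2, narrowly missed the threshold (adjusted p = 0.0508) and passed without MSC replicate 2 (adjusted p = 0.0407) or IL-4 MSC replicate 3 (adjusted p = 0.0475). That step also passed with only the groups compared in the fit (adjusted p = 0.00882), with DESeq2 size factors (adjusted p = 0.0439) and with the DESeq2 Wald test (adjusted p = 0.0238).

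Il6 itself was close to the detection limit. Its estimated counts were 2, 0, 2, 2 and 0 in Sham, 2, 1, 5, 1 and 2 in PBS at 1 wpi, 4, 1, 5, 7 and 3 after MSCs and 15, 6, 12, 7 and 4 after IL-4 MSCs. The 5 IL-4 MSC libraries together held 44 counts, against 6 in Sham, 11 in PBS and 20 in MSCs. Corrected for depth, this is a ratio of 7.69 to Sham (95% exact interval of 3.26 to 22.1), 4.09 to PBS (2.08 to 8.78) and 2.23 to MSCs (1.29 to 4), where the intervals cover counting error only. In the edgeR fit without a filter on low counts, over 21004 genes, Il6 was called in IL-4 MSCs against Sham (adjusted p = 0.00139) and against PBS (adjusted p = 0.0265). It was not called against MSCs (adjusted p = 0.284), nor in PBS (adjusted p = 0.626) or MSCs (adjusted p = 0.158) against Sham.

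**Figure D1:**
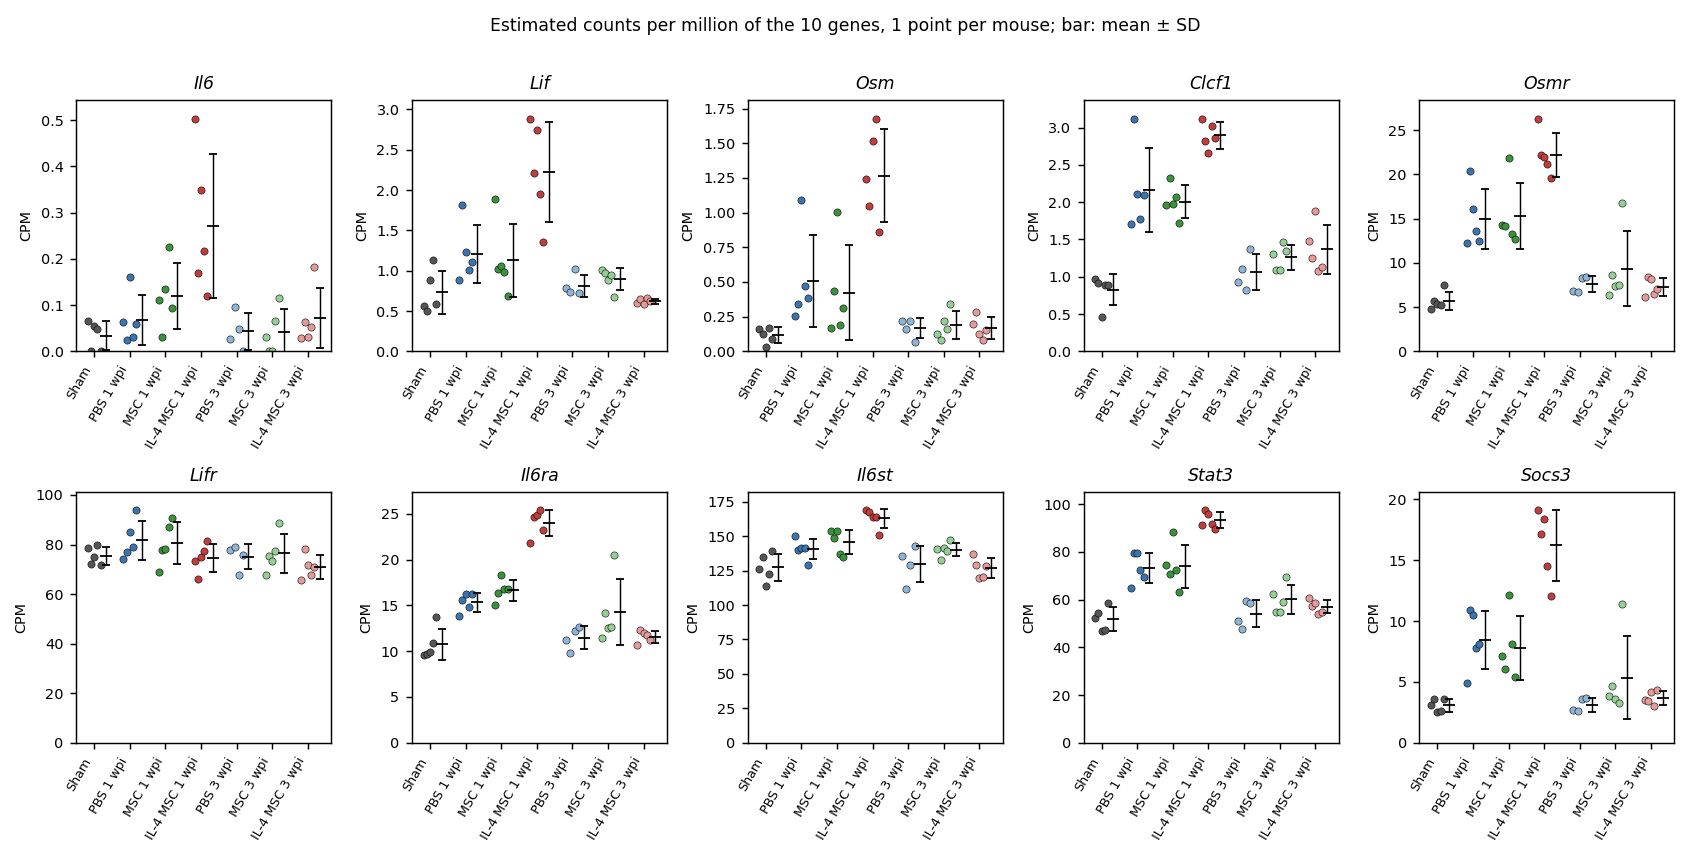
CPM (counts per 1000000 counts of the library) of the 10 genes, with 1 panel per gene on a linear axis from 0 and 1 point per mouse in the 7 groups; the bar beside each group is its mean ± SD (n = 5, PBS at 3 wpi n = 4). At 1 wpi the IL-4 MSC group has the highest mean in 9 genes, for example 16.2 CPM of Socs3 against 8.44 in PBS, while Lifr is level; at 3 wpi most points return to the Sham range, with 1 high MSC mouse in Osmr, Il6ra and Socs3.

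Among the receptors, Osmr, the OSM-specific partner of gp130, rose most. Sham libraries held 4.81, 5.69, 5.4, 5.25 and 7.48 CPM. At 1 wpi PBS held 12.2, 20.4, 16.1, 13.6 and 12.5 CPM, MSCs 14.3, 14.2, 21.8, 13.2 and 12.7 CPM, and IL-4 MSCs 26.3, 22.2, 22, 21.1 and 19.5 CPM. All 15 injured libraries at 1 wpi were above Sham, and the IL-4 MSC range met only the highest library of PBS and of MSCs. The fold against Sham for PBS was 2.55 (adjusted p = 1.03e-05), for MSCs 2.58 (adjusted p = 5.98e-06) and for IL-4 MSCs 3.69 (adjusted p = 3.83e-09). IL-4 MSCs exceeded PBS by 1.45-fold, at an adjusted p of 0.044 that did not hold in 7 of 10 fits that each left out 1 library of the pair. These were the fits without PBS replicates 1, 4 or 5 or IL-4 MSC replicates 1, 2, 3 or 4, with adjusted p between 0.0528 and 0.11. It also missed without the filter on low counts (adjusted p = 0.0557). Against MSCs the difference of 0.52 ± 0.185 in log2 did not pass (adjusted p = 0.0863). It passed without MSC replicate 3 (adjusted p = 0.0124), with only the groups compared in the fit (adjusted p = 0.046) and with the DESeq2 Wald test (adjusted p = 0.0498).

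Il6ra, the chain that binds IL-6 and is carried mainly by leukocytes and microglia, separated IL-4 MSCs from all other groups. Sham libraries held 9.54, 9.69, 9.91, 10.9 and 13.7 CPM. At 1 wpi PBS held 13.8, 15.6, 16.3, 14.9 and 16.2 CPM, MSCs 15, 16.3, 18.3, 16.8 and 16.8 CPM, and IL-4 MSCs 21.9, 24.7, 24.9, 25.4 and 23.2 CPM. Each of the 3 injured groups lay wholly above Sham, and the lowest IL-4 MSC library was above the highest library of every other group. Against Sham the fold was 1.39 for PBS (adjusted p = 0.00191), 1.5 for MSCs (adjusted p = 0.000146) and 2.12 for IL-4 MSCs (adjusted p = 5.35e-10). IL-4 MSCs were 1.53-fold higher than PBS (adjusted p = 5.37e-05) and 1.42-fold higher than MSCs (adjusted p = 0.000855).

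Lifr, the LIF receptor chain also used by CLCF1, did not follow the other genes. Sham libraries held 78.4, 72, 75, 79.8 and 71.7 CPM. PBS at 1 wpi held 74.2, 76.8, 84.9, 78.8 and 93.8 CPM, MSCs 69, 77.9, 78.4, 87.1 and 90.5 CPM and IL-4 MSCs 73.2, 65.9, 75.1, 77.5 and 81.2 CPM. All groups overlapped, and Lifr was called in none of the 15 comparisons. Set against PBS, IL-4 MSCs differed by a log2 of -0.17, with a 95% interval of -0.31 to -0.02 before adjustment (adjusted p = 0.123). Against Sham the interval in IL-4 MSCs ran from -0.23 to 0.06.

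Il6st, the gp130 gene, moved little in relative terms. Its Sham values were 126, 135, 114, 122 and 139 CPM, and at 1 wpi PBS held 150, 140, 141, 141 and 129 CPM. MSCs held 154, 149, 154, 137 and 135 CPM, and IL-4 MSCs 169, 168, 164, 164 and 151 CPM. The IL-4 MSC libraries lay above all Sham and PBS libraries and overlapped MSCs through their lowest library. IL-4 MSCs were 1.22-fold higher than Sham (adjusted p = 5.63e-05) and 1.13-fold higher than PBS (adjusted p = 0.0164). The difference from MSCs, 1.1-fold, did not pass (adjusted p = 0.116) unless IL-4 MSC replicate 5 was left out (adjusted p = 0.0459). With the mean of 13 striatum markers as a covariate, the difference from PBS missed the threshold (adjusted p = 0.0715). The call of MSCs against Sham was borderline (adjusted p = 0.0491) and was lost without any 1 of Sham replicates 1, 3 or 4 or MSC replicates 1, 2 or 3, with adjusted p between 0.0681 and 0.14.

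Stat3, the transcription factor at the end of the receptor chain, was already abundant in Sham, with 52.2, 54.5, 46.8, 47 and 58.7 CPM. At 1 wpi PBS held 65, 79.6, 79.6, 72.3 and 69.5 CPM, MSCs 74.6, 70.8, 88.2, 72.5 and 63.2 CPM and IL-4 MSCs 91.3, 97.4, 95.9, 91.7 and 89.4 CPM. The 3 injured groups were wholly above Sham, and IL-4 MSCs wholly above PBS and MSCs. The fold against Sham was 1.38 both for PBS (adjusted p = 3.56e-05) and MSCs (adjusted p = 2.4e-05), and for IL-4 MSCs 1.71 (adjusted p = 4.34e-10). IL-4 MSCs exceeded both PBS (adjusted p = 0.00268) and MSCs (adjusted p = 0.0041) by 1.24-fold.

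Socs3, the feedback inhibitor that STAT3 induces, rose more than Stat3 itself. Sham libraries held 3.12, 3.57, 2.51, 2.57 and 3.57 CPM. At 1 wpi PBS held 4.91, 10.9, 10.5, 7.77 and 8.13 CPM, MSCs 7.14, 6.03, 12.1, 8.15 and 5.42 CPM and IL-4 MSCs 19.1, 17.1, 18.4, 14.5 and 12.1 CPM. Every injured library was above Sham, all IL-4 MSC libraries were above PBS, and replicate 3 of MSCs met the lowest IL-4 MSC library. The fold against Sham for PBS was 2.7 (adjusted p = 0.000356), for MSCs 2.46 (adjusted p = 0.000809) and for IL-4 MSCs 5.05 (adjusted p = 3.18e-08). IL-4 MSCs were 1.87-fold higher than PBS (adjusted p = 0.011) and 2.05-fold higher than MSCs (adjusted p = 0.00571).

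Counted together at 1 wpi, 6 of the 9 tested genes were called higher in PBS than in Sham (Osm, Clcf1, Osmr, Il6ra, Stat3 and Socs3), where 8.7% of all genes tested were called higher. In MSCs 7 were called higher, the same 6 and Il6st, against 10.9% of all genes. In IL-4 MSCs 8 were called higher, all but Lifr, against 18.4% of all genes. The 9 genes had a median log2 fold change of 0.69 for PBS, 0.58 for MSCs and 1.51 for IL-4 MSCs, and all genes one of -0.01, -0.01 and -0.02. Counting Il6 too, all PBS libraries were above all Sham libraries in 6 of the 10 genes, where 8.09% of all genes tested separated so. For MSCs this held in 5 (11.3% of all genes) and for IL-4 MSCs in 9 (20.6%).

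Between treatments at 1 wpi, IL-4 MSCs had 7 of the 9 tested genes called higher than PBS (Lif, Osm, Osmr, Il6ra, Il6st, Stat3 and Socs3), against 11.1% of all genes, and 5 were called higher than in MSCs (Lif, Osm, Il6ra, Stat3 and Socs3), against 7.65%. All IL-4 MSC libraries were above all PBS libraries in 4 of the 10 genes (11.5% of all genes) and above all MSC libraries in 3, Clcf1, Il6ra and Stat3 (8.61%). None was called between MSCs and PBS, where 0.0992% of all genes were called, 0 of the 9 had an unadjusted p under 0.05, and the DESeq2 Wald test also called 0. The 95% intervals of that last difference, before adjustment, ran from -0.14 to 0.15 for Stat3 and from -0.63 to 0.37 for Socs3 in log2.

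**Figure D2:**
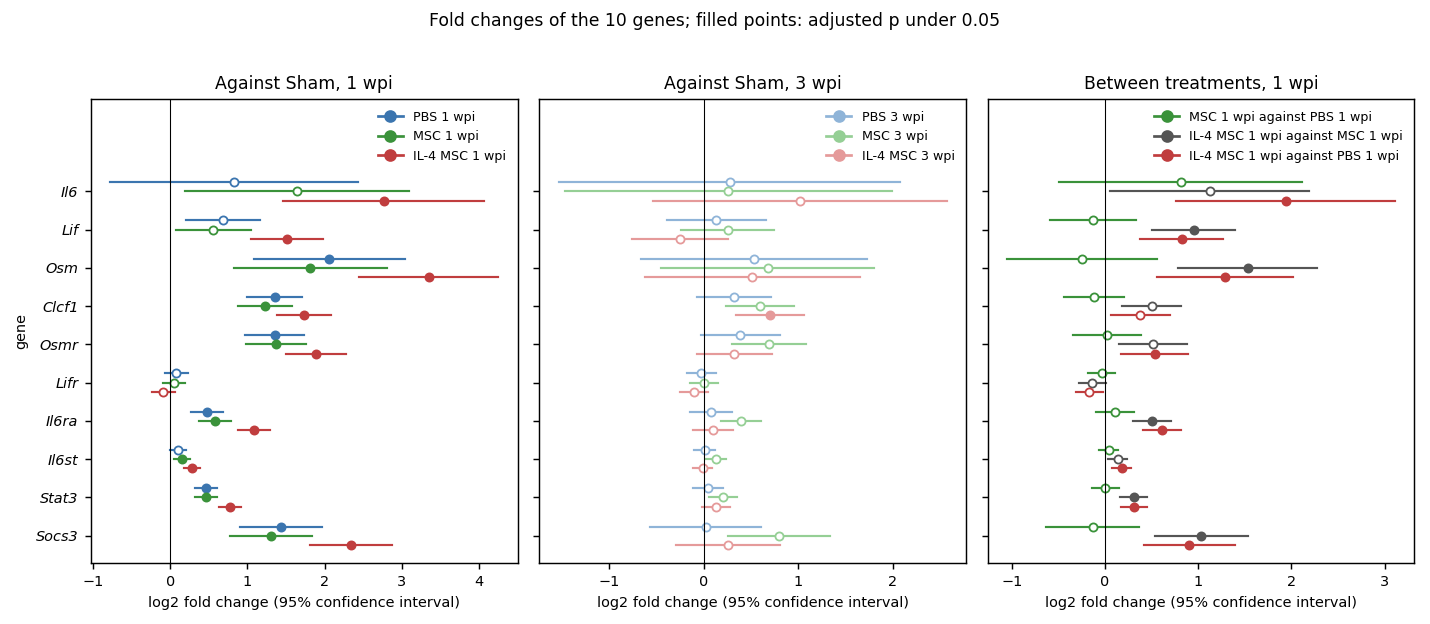
log2 fold changes of the 10 genes with 95% confidence intervals before adjustment, against Sham at 1 wpi (left) and 3 wpi (middle) and between treatments at 1 wpi (right); filled points have an adjusted p under 0.05, and Il6 comes from the fit without a filter on low counts. IL-4 MSCs lie to the right of PBS and MSCs at 1 wpi in every gene but Lifr, up to 3.35 for Osm, and Clcf1 in IL-4 MSCs is the only filled point at 3 wpi.

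Sums of cell type markers at 1 wpi are given beside these genes, and their part in the differences between treatments was not tested. The sum of 8 blood macrophage markers ranged from 70.2 to 127 CPM in Sham, 155 to 231 CPM in PBS, 218 to 310 CPM after MSCs and 416 to 632 CPM after IL-4 MSCs at 1 wpi. All 8 were called higher after IL-4 MSCs than after PBS, where 11.1% of all genes were. Against Sham, where the 8 microglia markers summed to between 227 and 277 CPM, 7 of the 8 were called higher in each of the 3 injured groups at 1 wpi, with a median log2 fold change of 0.62 for PBS, 0.64 for MSCs and 0.57 for IL-4 MSCs. Of all genes, 8.7%, 10.9% and 18.4% were called higher in PBS, MSCs and IL-4 MSCs. The part of microglia in the rises against Sham was not tested. Between treatments the microglia markers summed to between 369 and 464 CPM in IL-4 MSCs and between 360 and 478 CPM in PBS, with 1 called higher and 1 lower, and the 8 astrocyte markers to between 4581 and 4939 and between 4985 and 5509 CPM in the same order, with 0 called higher and 1 lower. Fibroblast markers, which the injected stromal cells can also carry, summed to between 292 and 743 CPM after MSCs. They summed to between 380 and 498 CPM after IL-4 MSCs and 192 and 275 CPM in PBS. No fibroblast marker was called between IL-4 MSCs and MSCs, where 7.65% of all genes were called higher. Endothelial markers had 6 of 8 called higher after IL-4 MSCs than after PBS, against 11.1% of all genes, with a median log2 fold change of 0.44. Apart from the Hox genes, of which 4 had no count in any Sham library, no marker of these lists was at 0 in a whole group. Whether more cells of a type, more RNA of these genes in each cell, or both gave the higher levels cannot be told apart in these bulk libraries.

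The genes of the cascade next to the 10 were described from lists of other ligands and receptors, kinases and adaptors, inhibitors and genes that STAT3 can induce. Of 10 other gp130 ligands and receptors 9 were tested, and against Sham at 1 wpi PBS had 2 called higher, MSCs 1, and IL-4 MSCs 4 with 1 lower. The shares called higher over all genes were 8.7%, 10.9% and 18.4%, so 1 of 9 for MSCs was near the share over all genes. The 4 were Cntf, Il11, Il27ra and Ctf1, and the lower gene was Cntfr. Cntf, an astrocytic neurotrophic cytokine, averaged 1.02 ± 0.129 CPM in Sham and 2.45 ± 0.305 CPM in IL-4 MSCs (adjusted p = 2.53e-05). Against PBS only Il27ra of this list was called, from 0.566 ± 0.189 to 0.986 ± 0.0897 CPM in IL-4 MSCs (adjusted p = 0.0278).

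Of the kinases, adaptors and other STATs, Jak2, Stat5a and Shc1 were among those that IL-4 MSCs had called higher than PBS at 1 wpi. Jak2, a kinase that binds gp130, went from 50.2 ± 2.19 to 71 ± 4.25 CPM (adjusted p = 2.32e-06). Stat5a, a STAT used by many cytokine receptors, went from 3.84 ± 0.208 to 6.49 ± 0.817 CPM (adjusted p = 9.59e-05). Shc1, an adaptor, went from 16.8 ± 1.61 to 22.6 ± 1.46 CPM (adjusted p = 0.000695).

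The other inhibitors split. Of 11 listed, IL-4 MSCs had 4 called higher and 1 lower than PBS at 1 wpi, where 11.1% of all genes were called higher. Socs1, an inhibitor of JAKs that interferons and IL-4 induce, went from 1.06 ± 0.154 to 3.31 ± 0.807 CPM, a log2 fold change of 1.61 ± 0.199 (adjusted p = 2.79e-07). Ptpn6, a phosphatase of blood cells, went from 7.66 ± 1.21 to 13.7 ± 1.6 CPM (adjusted p = 0.000278) and Cish from 5.04 ± 0.41 to 7.56 ± 0.913 CPM (adjusted p = 0.000649). Pias1, a nuclear SUMO ligase, was the lower gene, from 77.7 ± 2.7 to 73.8 ± 3.22 CPM (adjusted p = 0.0174). The median log2 fold change of the list was 0.00.

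Of 24 genes that STAT3 can induce, all of them tested, PBS had 15 called higher against Sham at 1 wpi and 2 lower, MSCs 15 and 2, and IL-4 MSCs 21 and 1, where 8.7%, 10.9% and 18.4% of all genes were called higher. Their median log2 fold change was 0.65, 0.74 and 1.42. Many of them also have other inducers, such as IL-4 for Il4ra. Among them Timp1, an inhibitor of matrix proteases, held 1.12 ± 0.221 CPM in Sham, 7.89 ± 3.01 CPM in PBS and 21.7 ± 4.31 CPM in IL-4 MSCs. Gfap, the intermediate filament of reactive astrocytes, held 178 ± 21.5 CPM in Sham, 951 ± 163 CPM in PBS and 1169 ± 185 CPM in IL-4 MSCs. The genes called lower were the immediate early genes Fos, in all 3 groups, and Junb, in PBS and MSCs.

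IL-4 MSCs had 12 of the 24 higher than PBS (11.1% of all genes) and 11 higher than MSCs (7.65%). None was lower, and the medians were 0.63 and 0.60. The 3 with the smallest adjusted p against PBS were Pim1, Il4ra and Myc. Pim1, a survival kinase, held 5.94 ± 0.972 CPM in PBS and 13.2 ± 1.81 CPM in IL-4 MSCs (adjusted p = 9.97e-08). Il4ra, the IL-4 receptor, held 12.2 ± 1.55 and 38.4 ± 5.25 CPM (adjusted p = 5.42e-06), and Myc, a growth regulator, 5.03 ± 0.809 and 7.93 ± 0.747 CPM (adjusted p = 0.000143). Gfap was not called between these groups, at a log2 fold change of 0.26 (adjusted p = 0.371).

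At 3 wpi none of the 24 was called against Sham in PBS. In MSCs 5 were called higher (Gfap, Serpina3n, Vim, Fgl2 and A2m), and in IL-4 MSCs 2 higher and 2 lower. Of all genes, 0.0175% were called in either direction in PBS and 1.12% in MSCs, and 2.63% were called higher in IL-4 MSCs. The median log2 fold change of the 24 was 0.13 for PBS, 0.63 for MSCs and 0.13 for IL-4 MSCs. The list was not refitted without replicate 5 of MSCs at 3 wpi, which stood apart as described next.

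**Figure D3:**
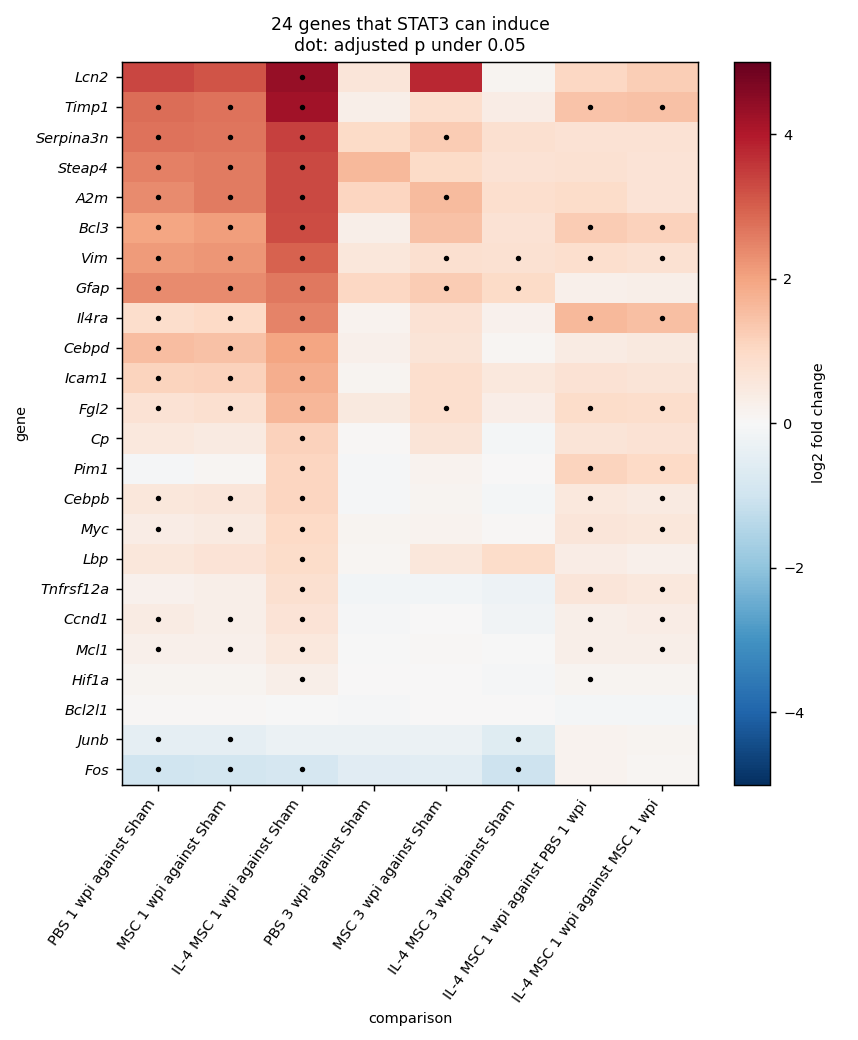
log2 fold changes (colour, red for higher) of 24 genes that STAT3 can induce, in 8 comparisons; a dot marks an adjusted p under 0.05. The IL-4 MSC column at 1 wpi has 21 dots for higher genes, from Hif1a up to Lcn2, against 15 in PBS and in MSCs. At 3 wpi PBS has none, MSCs 5 and IL-4 MSCs 2 for higher genes.

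At 3 wpi few differences from Sham were called. The median log2 fold change of the 9 tested genes against Sham was 0.08 for PBS, 0.39 for MSCs and 0.13 for IL-4 MSCs, where that of all genes was 0.00, 0.00 and 0.01. None of the 9 tested was called in PBS, where 0.0175% of all genes were called, 0 of the 9 had an unadjusted p under 0.05 and the DESeq2 Wald test called 0. None was called in MSCs, where 1.12% of all genes were, although 6 of the 9 had an unadjusted p under 0.05, and the DESeq2 Wald test called 2, Osmr (adjusted p = 0.0215) and Il6ra (adjusted p = 0.023). In IL-4 MSCs 1 of the 9 was called higher, Clcf1, against 2.63% of all genes. Its values were 1.48, 1.26, 1.88, 1.07 and 1.13 CPM, all above the Sham libraries, a separation found in 2.4% of all genes, and the log2 fold change was 0.7 ± 0.184 (adjusted p = 0.026). In MSCs at 3 wpi Clcf1 also lay wholly above Sham, with 1.31, 1.09, 1.09, 1.47 and 1.35 CPM (1.87% of all genes), at a log2 fold change of 0.59 ± 0.186 that was not called (adjusted p = 0.124). The call in IL-4 MSCs was lost without Sham replicates 3 or 4 or IL-4 MSC replicates 1 or 3 (adjusted p between 0.0522 and 0.101), with only the 2 groups in the fit (log2 fold change 0.7, adjusted p = 0.164), with only Sham mice of week 3 (0.54, adjusted p = 0.214) and with the striatum covariate (0.62, adjusted p = 0.216). The 13 striatum markers summed to between 588 and 3263 CPM in IL-4 MSCs at 3 wpi and 386 to 1204 CPM in Sham, and 8 of them were called higher. In the same comparison 4 of 8 T cell markers, 4 of 8 microglia markers and 3 of 8 blood macrophage markers were called higher, and their part in the Clcf1 value was not tested.

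Replicate 5 of MSCs at 3 wpi stood apart. Socs3 was 3.83, 4.63, 3.62 and 3.27 CPM in replicates 1 to 4 and 11.4 CPM in replicate 5. Osmr was 6.35, 8.67, 7.34 and 7.55 CPM in replicates 1 to 4 and 16.8 CPM in replicate 5, and Il6ra was 11.5, 14.1, 12.5 and 12.7 CPM against 20.5 CPM. The Socs3 and Osmr levels of replicate 5 lay within the range of the MSC libraries at 1 wpi. Its Il6ra level was above all PBS and MSC libraries of 1 wpi (highest 18.3 CPM) and below all IL-4 MSC libraries (lowest 21.9 CPM). The sum of the 8 neutrophil markers was 10.8 CPM in replicate 5 and 0.375 to 1.6 CPM in the others, and that of the 8 blood macrophage markers 215 against 97.7 to 127 CPM. Their part in the Socs3, Osmr and Il6ra values was not tested. Without replicate 5, the log2 fold change against Sham fell from 0.8 to 0.32 for Socs3 (adjusted p = 0.708), from 0.69 to 0.38 for Osmr (adjusted p = 0.459) and from 0.39 to 0.23 for Il6ra (adjusted p = 0.37). In the other direction, Osmr passed against Sham without Sham replicate 5 (adjusted p = 0.044) or MSC replicate 1 (adjusted p = 0.0435), and Il6ra without Sham replicate 5, MSC replicate 1 or MSC replicate 3 (adjusted p between 0.00896 and 0.0375).

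Between treatments at 3 wpi none of the 9 genes was called in any of the 3 comparisons by edgeR or by the DESeq2 Wald test. The share called among all genes was 2.9% for IL-4 MSCs against PBS, 3.3% for IL-4 MSCs against MSCs and 0.0759% for MSCs against PBS. At an unadjusted p under 0.05 there were 0, 2 and 3 of the 9. Lif was lowest in IL-4 MSCs at 3 wpi, with 0.596, 0.644, 0.588, 0.658 and 0.619 CPM, all below the libraries of PBS (0.781, 0.734, 1.02 and 0.729 CPM) and of MSCs (1.01, 0.965, 0.886, 0.942 and 0.669 CPM) at that time. Of all genes, 1.57% and 0.741% lay wholly below PBS and MSCs in this way. The log2 difference was -0.39 ± 0.272 against PBS (adjusted p = 0.509) and -0.51 ± 0.257 against MSCs (adjusted p = 0.3).

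From 1 to 3 wpi, 5 of the 9 genes were called lower in PBS (Clcf1, Osmr, Il6ra, Stat3 and Socs3), against 4.86% of all genes, 3 in MSCs (Clcf1, Osmr and Stat3), against 4.91%, and 8 in IL-4 MSCs, all but Lifr, against 16.5%. None was called higher. In IL-4 MSCs Osm fell by 2.83 ± 0.432 on the log2 scale (adjusted p = 3.91e-06), Socs3 by 2.08 ± 0.266 (adjusted p = 2.79e-07), Lif by 1.76 ± 0.242 (adjusted p = 6.31e-07) and Osmr by 1.56 ± 0.193 (adjusted p = 1.39e-07). In those 8 genes every IL-4 MSC library at 3 wpi was below every one at 1 wpi, a separation seen in 18% of all genes. Il6 went from 44 to 13 counts over the 5 libraries and was called in the fit without a filter (adjusted p = 0.0231).

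The calls of this fall in PBS and MSCs were less steady. In PBS the Il6ra call was lost without PBS 1 wpi replicates 2, 3 or 5 or PBS 3 wpi replicates 1 or 2 (adjusted p between 0.0571 and 0.154), and Osm passed without PBS 1 wpi replicate 1 (adjusted p = 0.0403). In MSCs replicate 5 of 3 wpi decided several calls. Without it Socs3 fell by 0.99 on the log2 scale (adjusted p = 0.00243) and Il6ra by 0.36 (adjusted p = 0.00463), and 5 genes were called. The Clcf1 call in MSCs was lost without MSC 1 wpi replicate 2 or MSC 3 wpi replicates 2 or 3 (adjusted p between 0.0514 and 0.063). The Osmr call was lost without MSC 1 wpi replicate 3 or MSC 3 wpi replicates 1, 2, 3 or 4 (adjusted p between 0.0646 and 0.143), and the Stat3 call without MSC 1 wpi replicates 1 or 3 or MSC 3 wpi replicates 2 or 3 (adjusted p between 0.0542 and 0.128). With only the 2 MSC groups in the fit, Osmr (adjusted p = 0.259) and Stat3 (adjusted p = 0.14) were not called.

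Whether the IL-4 MSC effect differed between the times was tested with interaction terms. Relative to PBS, the effect at 1 wpi exceeded that at 3 wpi in 2 of the 9 genes, Lif (by 1.21 ± 0.354 in log2, adjusted p = 0.0414) and Il6ra (by 0.59 ± 0.154, adjusted p = 0.02), against 3.89% of all genes. Relative to MSCs it did so in 6, Lif, Osmr, Il6ra, Il6st, Stat3 and Socs3, against 5.88% of all genes, with the largest difference in Socs3 (1.57 ± 0.37, adjusted p = 0.00664). For MSCs against PBS none of the 9 and none of all genes (0%) was called, 1 of the 9 genes had an unadjusted p under 0.05, and the DESeq2 Wald test called 0 of the 9. Without replicate 5 of MSCs at 3 wpi the term relative to MSCs was 1.11 for Socs3 (adjusted p = 0.0167) and 0.59 for Osmr, no longer called (adjusted p = 0.112). The Osmr term was also lost in 9 other fits that each left out 1 library, and the Lif term relative to PBS in 13 of 19 such fits, with adjusted p up to 0.116. With the striatum covariate the Osmr term relative to MSCs (0.81, adjusted p = 0.107) and the Lif term relative to PBS (1.17, adjusted p = 0.0637) were not called, and Il6st relative to PBS was (0.25, adjusted p = 0.0363). With only the groups compared the Osmr term was 0.89 (adjusted p = 0.0867). The libraries concerned are named in the closing section.

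**Figure D4:**
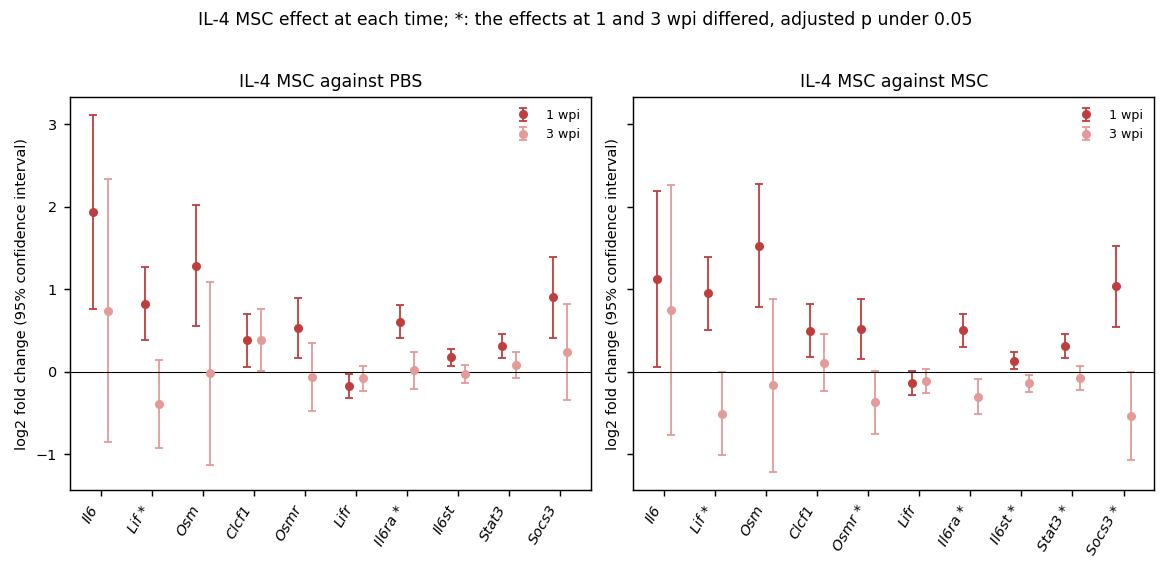
log2 fold changes of IL-4 MSCs against PBS (left) and against MSCs (right) at 1 wpi (dark) and 3 wpi (light) with 95% confidence intervals before adjustment, for the 10 genes; a star marks genes whose 2 effects differed in the interaction test, and Il6 comes from the fit without a filter on low counts. At 3 wpi no effect was called. Socs3 was 0.24 against PBS and -0.54 against MSCs, beside 0.91 and 1.04 at 1 wpi, and Lif -0.39 and -0.51.

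Across the 34 libraries 8 of the 9 tested genes rose and fell together, as a description of libraries that share groups and depth. Pearson's r of log2 CPM was 0.959 between Socs3 and Stat3, 0.955 between Socs3 and Osmr and 0.926 between Osmr and Il6ra. Among these 8 genes the lowest r was 0.622, between Il6st and Lif. Lifr had r between -0.261 and 0.0938 with the other 8. Socs3 was 19.1 CPM in the IL-4 MSC library with the highest value and 2.51 CPM in the lowest Sham library, while Stat3 spanned 97.4 to 46.8 CPM.

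Of all genes tested, those most like each member in these 34 libraries are given by name with their r. Sbno2 (r = 0.972), Tnfrsf1a (r = 0.96) and Csf2rb (r = 0.96) were nearest to Socs3, and Tln1 (r = 0.977), Glipr2 (r = 0.973) and Tnfrsf1a (r = 0.972) to Stat3. Rab32 (r = 0.97), Lcp1 (r = 0.965) and Tlr13 (r = 0.965) were nearest to Osmr, and Fcgr3 (r = 0.96), Fes (r = 0.959) and Ahnak (r = 0.957) to Il6ra. Osm was nearest to Cyp4f18 (r = 0.932), Treml2 (r = 0.906) and Tnfrsf1b (r = 0.903), and Clcf1 to Ncf1 (r = 0.919), Pik3cg (r = 0.909) and Ikzf1 (r = 0.909). Lif was nearest to Zfp984 (r = 0.855), Hif1a (r = 0.853) and Fgfrl1 (r = 0.851), and Il6st to Nfam1 (r = 0.88), Cpne3 (r = 0.862) and Arap1 (r = 0.856). Lifr was nearest to Spns2 (r = 0.894), Zbtb16 (r = 0.848) and Ksr1 (r = 0.847).

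**Figure D5:**
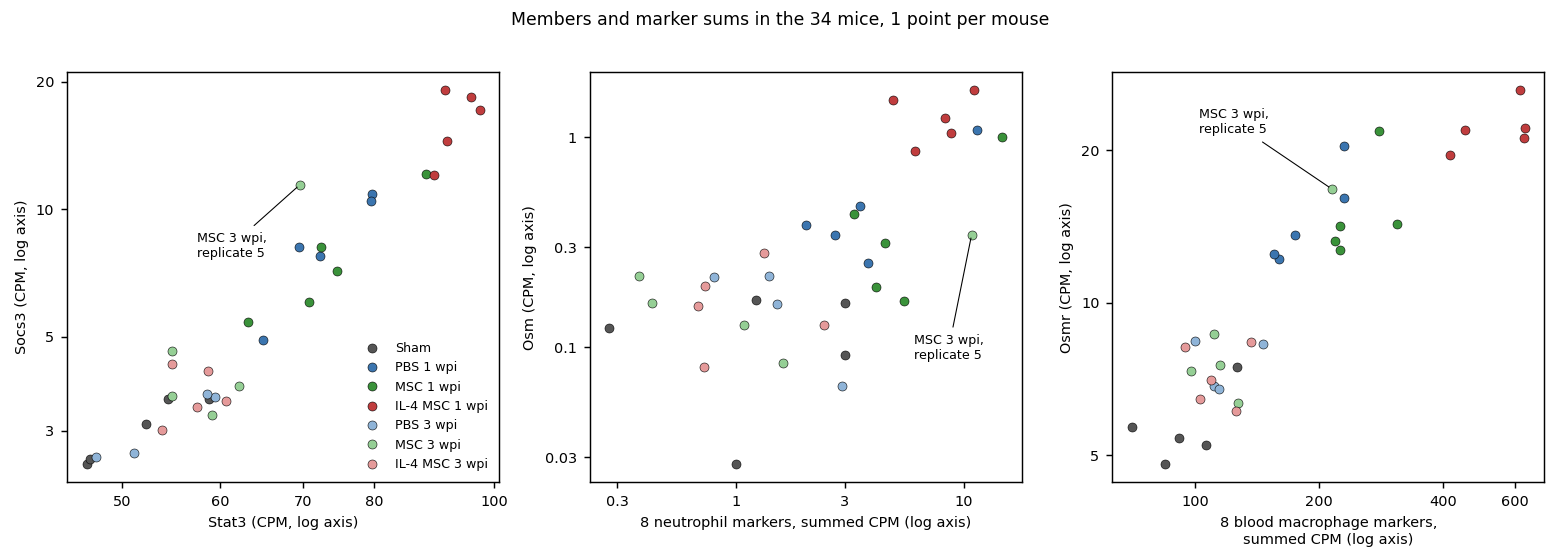
Each point is 1 of the 34 mice, coloured by group, on log axes: Socs3 against Stat3 (left), Osm against the sum of 8 neutrophil markers (middle) and Osmr against the sum of 8 blood macrophage markers (right), all in CPM. The IL-4 MSC mice at 1 wpi lie at the upper right of the left and right plots. Replicate 5 of MSCs at 3 wpi lies with 1 wpi mice in those plots, at 11.4 CPM of Socs3. In the middle plot it has 10.8 CPM of neutrophil markers and 0.345 CPM of Osm.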

How the data were processed

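Per the labels and the study's methods, the authors trimmed reads with cutadapt 2.4 and assigned them with kallisto 0.46 to protein-coding transcripts of GENCODE vM23 (GRCm38). The deposited table held estimated counts, summed per gene and not normalized, and TPM per gene from the authors, which are scaled for transcript length. Its 63 columns of the authors' own comparisons (p-values, q-values and fold changes) were not used. CPM here are deposited estimated counts per 1000000 of a library's total. Estimated counts were not whole numbers in 15 to 34 libraries for Lif, Clcf1, Lifr, Il6ra, Il6st and Stat3 (tolerance 0.01). Those of Il6, Osm, Osmr and Socs3 were whole. Kallisto can divide reads between genes, which was not examined here.

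For tests, estimated counts were rounded, filtered with filterByExpr (minimum count 10), TMM-normalized and fitted over all 34 libraries with edgeR 4.0.16 (R 4.3.3; robust quasi-likelihood, two-sided, Benjamini-Hochberg over 17131 genes, threshold 0.05), in 15 comparisons and 3 interactions. Errors of fold changes are SE; intervals are 95%. Log2 CPM for correlations used a prior count of 2. Alternatives were DESeq2 1.42.0, its size factors, no filter, only the groups compared, Sham of the same week, a striatum covariate, a replicate block and each library left out. The genes, lists and tests were chosen with earlier results of these data known. By the rule for named genes, all 10 are described, and from each list the 3 with the smallest adjusted p in IL-4 MSCs against PBS at 1 wpi that were called and any called the other way, besides genes of other comparisons chosen after their values were seen. Gene positions are from GENCODE vM21 (GRCm38). The labels do not say what the number before the dash in a mouse's name stands for; mice of a treated group share it, so anything tied to it cannot be told apart from the group. Counts over the list of kinases and adaptors are not reported here.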

Additional observations from a re-analysis of the deposited data

Results flagged for a closer look

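Of 70 sets of values (10 genes in 7 groups), 4 held a library far from the others, where chance gives about 1 in 20. In Sham, Clcf1 in replicate 3 (0.461 CPM) was lowest, with a gap to the next library of 0.843 of the group's whole range of log2 CPM. In MSCs at 1 wpi, Osmr in replicate 3 (21.8 CPM) was highest with a gap of 0.782 of the range. In IL-4 MSCs at 1 wpi, Il6st in replicate 5 (151 CPM) was lowest with a gap of 0.718. In MSCs at 3 wpi, Socs3 in replicate 5 (11.4 CPM) was highest with a gap of 0.725.

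The effect of IL-4 MSCs differed between 1 and 3 wpi in 8 of 18 interaction tests of the 9 genes, 9 relative to PBS and 9 relative to MSCs. Relative to PBS the log2 difference between the effects was 1.21 for Lif and 0.59 for Il6ra. Relative to MSCs it was 1.46 for Lif, 0.89 for Osmr, 0.80 for Il6ra, 0.28 for Il6st, 0.38 for Stat3 and 1.57 for Socs3. All 8 were larger at 1 wpi. The Lif term relative to PBS was lost when PBS 1 wpi replicates 1, 4 or 5, IL-4 MSC 1 wpi replicates 1, 2 or 3, PBS 3 wpi replicates 1, 3 or 4 or IL-4 MSC 3 wpi replicates 1, 3, 4 or 5 were left out singly (adjusted p between 0.0524 and 0.116), and the Il6ra term without PBS 3 wpi replicates 3 or 4 (adjusted p between 0.0511 and 0.056). Il6st passed relative to PBS without PBS 3 wpi replicate 2 (adjusted p = 0.0262). The Osmr term relative to MSCs was lost without MSC 1 wpi replicates 1, 2, 4 or 5, IL-4 MSC 1 wpi replicates 1 or 2, MSC 3 wpi replicate 5 or IL-4 MSC 3 wpi replicates 1, 4 or 5 (adjusted p between 0.0556 and 0.112), and Osm passed without MSC 1 wpi replicate 3 (adjusted p = 0.0133).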

How the results depend on the processing

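No fold change of the 9 tested genes that was called in either fit changed sign under an alternative. Counts of called genes stayed within 1.5 times the reported count in 14 of the 18 comparisons and interactions. In the other 4 they moved as follows, and the cause was not tested. For MSCs against Sham at 3 wpi the count of 0 became 2 with DESeq2 and 1 with the replicate block, and ranged from 0 to 2 with 1 library left out. For IL-4 MSCs against Sham at 3 wpi the count of 1 became 0 with the striatum covariate, with only the groups compared and with Sham of the same week, and ranged from 0 to 1 with 1 library left out. For MSCs at 3 against 1 wpi the count of 3 became 1 with only the groups compared and ranged from 0 to 5 with 1 library left out. For the interaction of IL-4 MSCs against PBS with time the count of 2 became 1 with the replicate block and ranged from 0 to 3 with 1 library left out.

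Replicate numbers did not pair the mice, since 99 pairs of libraries with the same number had deviations correlated between -0.462 and 0.4 (median 0.0116), and 6 of 34 libraries correlated best with their own number. The block added Lif in PBS against Sham at 1 wpi (adjusted p = 0.0429) and Il6ra in MSCs against Sham at 3 wpi (adjusted p = 0.0276), removed the Lif interaction of IL-4 MSCs against PBS (adjusted p = 0.0658) and changed no other call. For IL-4 MSCs against MSCs at 1 wpi, DESeq2 added Clcf1 (adjusted p = 0.0238) and Osmr (adjusted p = 0.0498). Il6 was not refitted without single libraries. At these depths Il6 and, in Sham, Osm rest on a few counts per library, so small differences of these genes were not detectable.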
